A study of Mus musculus with 8 samples.

Results

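The genes described here encode the factors that start and drive translation of mRNA: the eukaryotic initiation factors (Eif genes), the elongation factors (Eef genes), the La-related proteins (Larp genes) and the cytoplasmic poly(A)-binding proteins (Pabpc genes). They were taken by symbol from a list of chromatin regions called as peaks in a pulldown of tagged KLF13, a transcription factor. The rule keeps every peak whose assigned gene symbol starts with Eif and a digit from 1 to 6, or Eef and 1 or 2. It also keeps symbols that start with Larp and a digit, or Pabpc and a digit. The rule took 43 of 9506 peaks, assigned to 39 of 7800 genes. It reaches beyond initiation, since 4 of the 39 genes carry Eef, 4 Larp and 2 Pabpc symbols. A RefSeq gene table holds 86 protein-coding genes that match the same rule, so 47 had no assigned peak.

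Peaks came from HT22, an immortalised mouse hippocampal line described as neuronal. The cells stably made BirA, a biotin ligase, and had been transfected with the plasmid pTO-Klf13Bio, from which a form of KLF13 that BirA biotinylates is made. Chromatin taken 24 h after transfection was precipitated on streptavidin (ChSP) for 4 libraries, and 4 input libraries came from the same kind of transfected HT22-BirA cells without precipitation. All 8 libraries therefore share BirA and the plasmid, KLF13 was supplied from that plasmid, and no pulldown without tagged KLF13 is among them. At each peak, DNA held by tagged KLF13 and DNA held by streptavidin alone cannot be told apart. The list gives 1 value of each kind per peak over all libraries, made by the authors. Its header leaves these columns unnamed, and they are read here, from their values and the usual column order of the peak caller, as a linear fold of ChSP over input and a p-value. Each fold and p below rests on that reading. The labels number the libraries without saying that they came from separate cultures, so the p-values may cover technical spread only. Read depth and the spread between libraries are unknown, so no fold carries a replicate error and no difference between folds was tested. Intervals given below for shares are exact 95% binomial intervals and cover counting error only. Coordinates are on GRCm38.

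Initiation begins when eIF4E binds the mRNA cap and, with the scaffold eIF4G and the helicase eIF4A, draws the mRNA to a small ribosomal subunit that carries eIF3, eIF1, eIF1A, eIF5 and the eIF2-bound initiator tRNA. 4E-binding proteins hold eIF4E back until mTOR phosphorylates them, and stress kinases phosphorylate eIF2 so that its exchange factor eIF2B can no longer recharge it. In neurons both control points are known for their part in synaptic plasticity and memory. KLF13 belongs to the KLF and Sp family of zinc finger proteins, which bind GC boxes and CACCC-type elements.

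Upstream stretches from 5 genes, each of 250 bases and ending at the base before the RefSeq start (GRCm38.p6), are shown 5′ to 3′ on the strand of the gene. Capitals mark the GC box GGGCGG, which reads CCGCCC where it lies on the other strand, and the E-box CACGTG. Eif1ax (chrX:159371928-159372177, plus strand) and Eif4e (chr3:138527018-138527267, plus strand) are shown because they had the highest folds among genes with a sequence that could be shown, Eif1ax also because it held the most GC boxes among members with a promoter peak, Eif4a2 (chr16:23107218-23107467, plus strand) and Eif4a1 (chr11:69672424-69672673, minus strand) as helicase paralogues with and without a peak, a pair chosen after its values were seen, and Eef1b2 (chr1:63176581-63176830, plus strand) as a core factor gene with no peak.
Eif1ax: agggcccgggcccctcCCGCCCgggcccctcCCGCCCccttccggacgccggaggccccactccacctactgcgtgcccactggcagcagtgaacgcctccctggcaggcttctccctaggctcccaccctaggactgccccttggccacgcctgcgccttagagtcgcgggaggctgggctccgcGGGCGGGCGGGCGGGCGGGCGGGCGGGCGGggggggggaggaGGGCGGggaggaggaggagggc
Eif4e: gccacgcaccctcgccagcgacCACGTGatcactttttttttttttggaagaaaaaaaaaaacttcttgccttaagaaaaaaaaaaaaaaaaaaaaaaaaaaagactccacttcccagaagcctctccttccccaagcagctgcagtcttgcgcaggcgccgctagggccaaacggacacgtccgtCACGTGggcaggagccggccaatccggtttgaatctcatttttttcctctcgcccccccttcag
Eif4a2: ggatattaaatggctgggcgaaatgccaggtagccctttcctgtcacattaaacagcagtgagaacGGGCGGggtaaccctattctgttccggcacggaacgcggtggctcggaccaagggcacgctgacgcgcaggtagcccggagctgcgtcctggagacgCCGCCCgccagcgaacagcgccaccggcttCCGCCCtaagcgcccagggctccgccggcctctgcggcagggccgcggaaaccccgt
Eif4a1: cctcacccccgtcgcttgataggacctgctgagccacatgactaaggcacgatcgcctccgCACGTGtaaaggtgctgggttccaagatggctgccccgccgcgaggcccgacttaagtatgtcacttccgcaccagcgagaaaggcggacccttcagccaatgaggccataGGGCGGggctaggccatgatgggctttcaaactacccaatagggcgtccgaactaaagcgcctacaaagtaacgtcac
Eef1b2: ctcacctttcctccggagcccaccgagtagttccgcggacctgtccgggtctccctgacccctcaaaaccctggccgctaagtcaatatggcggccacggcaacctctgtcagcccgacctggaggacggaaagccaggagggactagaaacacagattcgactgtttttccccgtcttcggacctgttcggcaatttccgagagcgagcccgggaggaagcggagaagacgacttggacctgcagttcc

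The Eif1ax stretch held 10 GC boxes counted on both strands with overlaps, 7 of them in 1 run of repeated units near the start, and 78.8% of its bases were G or C. All 250 of its bases lay under the peak. The Eif4e stretch held 0 GC boxes and 2 E-boxes at a G+C content of 48.8%, and 67 of its bases lay under the peak, which continued downstream of the start. Between the helicase paralogues, Eif4a2 held 3 GC boxes and lay wholly under its peak, while Eif4a1 held 1 GC box and 1 E-box and had no peak. Eef1b2 held neither element. A match is a description of the letters and does not show a bound site.

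Translation factor genes had promoter peaks at 36 of 86 members, or 41.9% (31.3 to 53.0), where a promoter peak is an assigned peak no farther than 1 kb from the transcription start site, or TSS. Over all 21900 protein-coding genes the share was 30.9%. The highest folds belonged to genes of start codon selection and cap binding, and no promoter peak was assigned to the eIF2 subunit genes, to Eif1 or to Eef2. The median fold over the 36 promoter peaks was 24.3 (quartiles 18.02 and 32.8, range 8.26 to 50.0), beside 22.2 (quartiles 16.5 and 30.3) over all 7599 promoter peaks. The members' promoter folds lay inside the wider range of all promoter peaks, 2.10 to 87.6. Of all 43 member peaks, at any distance from a TSS, 6 were among the 10% of the whole list with the highest fold. Among the 10% with the lowest fold were 8, which include the 3 peaks upstream of Eif4enif1 that are not promoter peaks. Because the list has no value per library, these counts and medians are a description with no test.

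**Figure D1:**
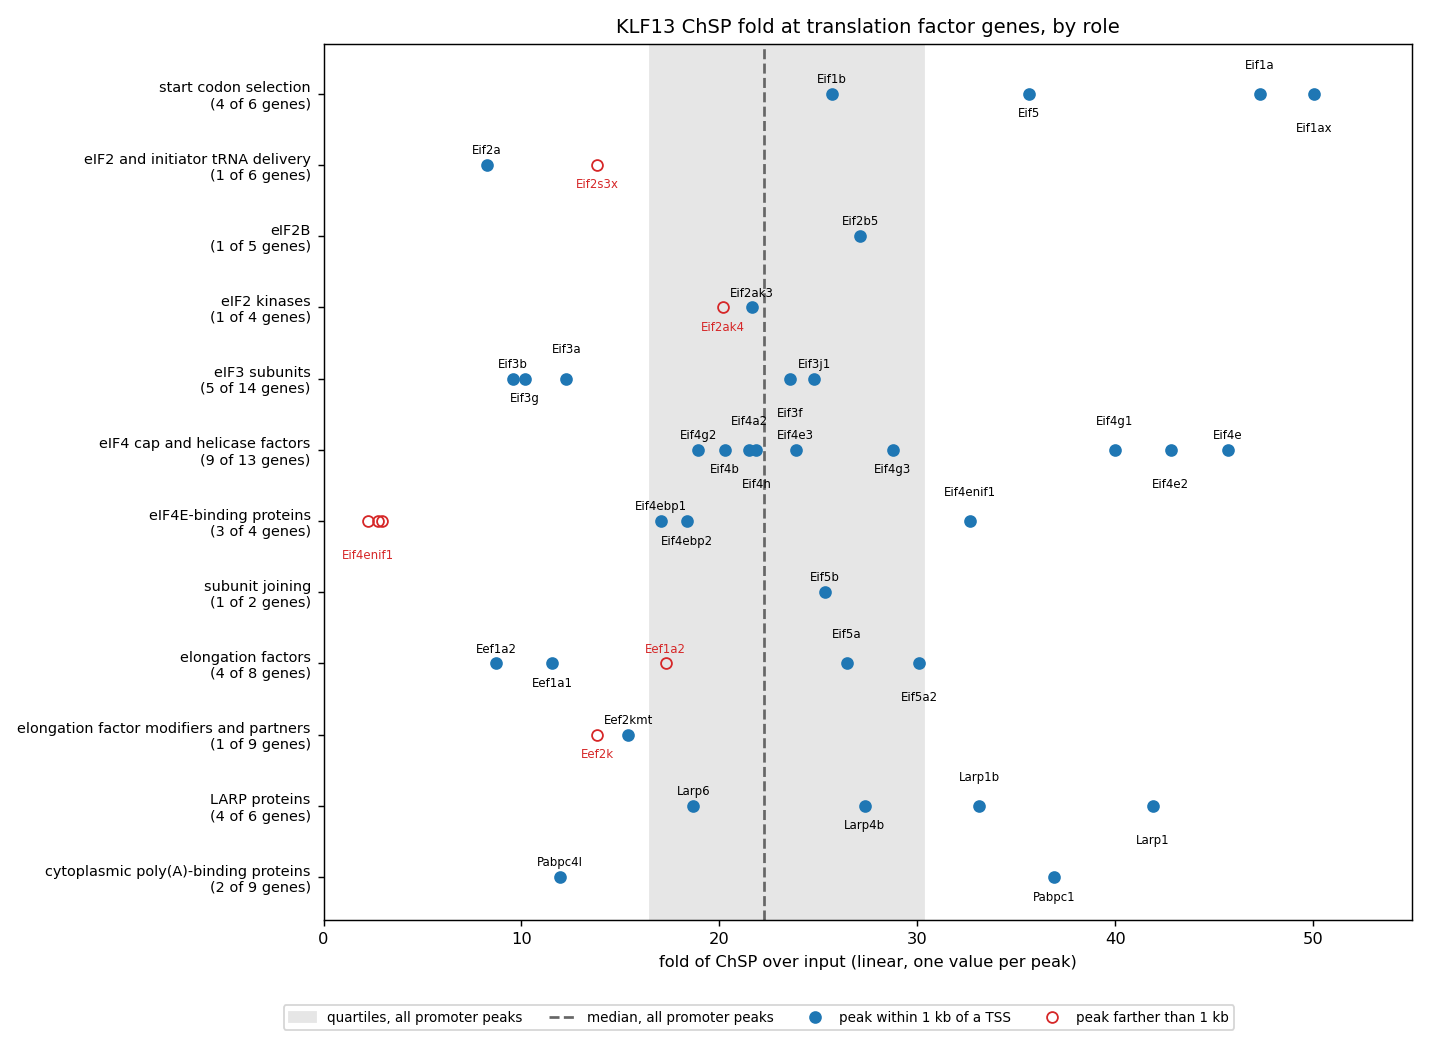
Fold of ChSP over input (linear, horizontal axis) for each peak of a translation factor gene, grouped by role, with the number of genes that had a promoter peak under each role's name. Filled points are peaks within 1 kb of a TSS and open points lie farther out; the dashed line and grey band are the median and quartiles of all 7599 promoter peaks, and Eif1ax, Eif1a and Eif4e lie farthest to the right at 50.0, 47.3 and 45.7.

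Genes of start codon selection had promoter peaks at 4 of 6 members (66.7%, 22.3 to 95.7), with a median fold of 41.5. That interval holds the 30.9% of all genes. Eif1ax (ENSMUSG00000067194), which encodes an eIF1A that helps the scanning ribosome find the start codon, had the highest fold of the group, 50.0, in a peak of 500 bp at chromosome X, 159371901 to 159372400. Its p of 2.29e-09 was far from the smallest, and the fold exceeded those of 97.4% of the list. Eif1a (ENSMUSG00000057561), the other eIF1A gene, followed with 47.3 and p = 1.99e-16 by the authors, on chromosome 18 from 46597001 to 46597900. Eif5, whose product makes eIF2 hydrolyse its GTP at the start codon, had a fold of 35.6 in a peak of 1200 bp (the authors' p = 2.24e-29). Eif1b, an eIF1 paralogue, had a fold of 25.7. Eif1 itself had no peak, the nearest one to its start lying 94152 bp away, so the paralogues of eIF1 differed in whether a peak was listed. Eif1ad, a nuclear protein gene named for its eIF1A-like domain, had no assigned peak, but a peak with a fold of 31.5 that overlapped its RefSeq start is assigned to its neighbour Banf1.

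The eIF2 branch supplies the initiator tRNA and is the target of stress control. Promoter peaks were assigned to 1 of 6 genes of eIF2 and initiator tRNA delivery (0.421 to 64.1%), 1 of 5 of eIF2B (0.505 to 71.6%) and 1 of 4 eIF2 kinase genes (0.631 to 80.6%). These intervals all hold the 30.9% of all genes, so no lower share was shown. None of Eif2s1, Eif2s2, Eif2s3x and Eif2s3y, the genes of the alpha, beta and X- and Y-linked gamma subunits, had one. On chromosome Y the nearest peak lay 89730306 bp from the Eif2s3y start, and whether reads covered that region is unknown. Eif2a, which encodes an alternative carrier of initiator tRNA, had the lowest promoter fold of all members, 8.26, on chromosome 3 from 58525601 to 58525900 (the authors' p = 1.80e-06), and Eif2d, another such carrier, had none. Among the 5 genes of eIF2B, the exchange factor that recharges eIF2, Eif2b5 of the catalytic epsilon subunit had a fold of 27.1, while Eif2b1, Eif2b2, Eif2b3 and Eif2b4 had no peak. Of the 4 eIF2 kinase genes, Eif2ak3 (PERK, the sensor of unfolded protein in the endoplasmic reticulum) had a promoter fold of 21.6. Eif2ak4 (GCN2, the sensor of uncharged tRNA) had an intronic peak 9474 bp downstream of the assigned TSS and a fold of 20.2, on chromosome 2 from 118426701 to 118427100. Eif2ak1 (HRI, regulated by heme) and Eif2ak2 (PKR, activated by double-stranded RNA) had no peak.

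The subunit genes of eIF3, the large scaffold on the small ribosomal subunit, had promoter peaks at 5 of 14 members (35.7%, 12.8 to 64.9), a share close to the 30.9% of all genes. Their median fold of 12.3 was below the lower quartile of all promoter peaks. Eif3j1, a loosely attached subunit, and Eif3f had folds of 24.8 and 23.6. Those of Eif3a, Eif3g and Eif3b were 12.3, 10.2 and 9.55, all below the lower quartile of the whole list, 15.5. No peak was assigned to Eif3c, Eif3d, Eif3e, Eif3h, Eif3i, Eif3j2, Eif3k, Eif3l or Eif3m. Among the 4753 peaks with the smallest p, 3 eIF3 peaks remained and their median fold was 23.6, without Eif3g and Eif3b, which have larger p-values.

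The eIF4 group, which brings the mRNA to the ribosome, had promoter peaks at 9 of 13 genes (69.2%, 38.6 to 90.9), with a median fold of 23.9. That interval lies above the 30.9% of all genes, with no allowance for the number of roles. Eif4e (ENSMUSG00000028156), the cap-binding protein gene, had a fold of 45.7 and the smallest p of all member peaks, 3.30e-30, in a peak of 1000 bp at chromosome 3, 138527201 to 138528200. Eif4e2 (ENSMUSG00000026254), whose product binds the cap without joining eIF4G and represses translation, had 42.8 with the authors' p at 5.96e-24, on chromosome 1 from 87213801 to 87214500. The third cap-binding paralogue with a peak, Eif4e3, had 23.9, and Eif4e1b had no assigned peak. All of the eIF4G scaffold genes had one. Eif4g1 (ENSMUSG00000045983) had 40.0 with the authors' p at 5.78e-19, on chromosome 16 from 20672501 to 20673600, and Eif4g3 had 28.8. Eif4g2, which encodes a scaffold lacking the eIF4E-binding part, had 18.9 in a peak that began 230 bp downstream of its TSS. The helicase genes split: Eif4a2 had a fold of 21.5, whereas Eif4a1, Eif4a3 (a core protein of the exon junction complex) and Eif4a3l1 had no peak. Both helicase cofactor genes had peaks, Eif4h with 21.9 and Eif4b with 20.3.

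The genes of proteins that bind eIF4E had promoter peaks at 3 of 4 members (75%, 19.4 to 99.4), an interval that holds the 30.9% of all genes. Eif4ebp1 and Eif4ebp2, the mTOR-controlled repressors, had folds of 17.02 and 18.4, and Eif4ebp3 had no peak. Eif4enif1 (ENSMUSG00000020454), which encodes the shuttling protein 4E-T, had a promoter fold of 32.6 on chromosome 11 from 3202201 to 3203200 (the authors' p = 9.67e-16). It also had 3 peaks upstream of its TSS, at -2153, -2753 and -3553 bp, with folds of 2.75, 2.22 and 2.96, the lowest of all member peaks. They were 200 to 300 bp wide and their p-values were 9.27e-07, 2.66e-06 and 1.47e-08. The 3 belong to a stretch of 14 kb, from 3186201 to 3200200, that held 8 peaks with folds between 2.10 and 3.56, the other 5 assigned to the neighbouring centrosomal gene Sfi1. Over the whole list 19 peaks (0.200%) had a fold below 3, and 6 of them lay in this stretch.

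Downstream of start codon recognition, Eif5b, the GTPase that joins the large subunit, had a fold of 25.3, and Eif6, which keeps large subunits apart from small ones, had no peak. Among elongation factor genes 4 of 8 had promoter peaks (50%, 15.7 to 84.3), an interval that holds the 30.9% of all genes. The highest were Eif5a2 and Eif5a, whose hypusine-bearing products help the ribosome through difficult peptide bonds, with folds of 30.1 and 26.4. Eef1a1 and Eef1a2, which encode the carriers of aminoacyl-tRNA in most cells and in neurons and muscle respectively, had 11.5 and 8.72, both from narrow peaks of 400 and 300 bp that began within 24 bp downstream of the TSS. A second Eef1a2 peak, in the 3' UTR at 8815 bp from the assigned TSS, had 17.3, on chromosome 2 from 181147601 to 181148200. Eef1b2, Eef1d and Eef1g, the exchange factor subunits of eEF1, and Eef2, the translocase, had no assigned peak, although a peak assigned to Tigd5 (fold 25.7) covered an end of Eef1d.

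Modifiers and partners of elongation factors had a promoter peak at 1 of 9 genes (11.1%, 0.281 to 48.2), an interval that holds the 30.9% of all genes. The gene with the peak was Eef2kmt, a lysine methyltransferase acting on eEF2, with a fold of 15.4. Eef2k, the kinase that inactivates eEF2, had only an intergenic peak 32831 bp upstream of its TSS and a fold of 13.8, on chromosome 7 from 120809701 to 120810000. The remaining modifier genes, Eef1akmt1, Eef1akmt2, Eef1akmt3, Eef1akmt4, its readthrough form Eef1akmt4-ece2, Eef1aknmt and the partner gene Eef1e1, had none assigned. Beyond 3 kb from a TSS lay 5 member peaks in all: those of Eif2ak4, Eef1a2 and Eef2k, the outermost of the Eif4enif1 peaks, and an Eif2s3x peak. The Eif2s3x peak lay 34351 bp downstream of the TSS, past the end of the gene, at chromosome X, 94178101 to 94178300, with a fold of 13.8 and the largest p of all member peaks, 6.09e-06.

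La-related protein genes had promoter peaks at 4 of 6 members (66.7%, 22.3 to 95.7), with a median fold of 30.2. The 30.9% of all genes lies inside that interval. Larp1 (ENSMUSG00000037331), which encodes the protein that binds the cap and the pyrimidine tract of ribosomal protein mRNAs under mTOR control, had a fold of 41.9 in a peak of 1700 bp at chromosome 11, 58008501 to 58010200 (the authors' p = 3.06e-20). Larp1b, its paralogue, had 33.1 with a small p of 3.75e-30, Larp4b had 27.3, and Larp6, which binds collagen mRNAs, had 18.7. Larp7, a protein of the 7SK particle and not a translation factor, had none. Larp4, which binds poly(A), had none assigned, but a peak assigned to 2310068J16Rik with a fold of 12.4 lay 21 bp from its RefSeq start. Of the cytoplasmic poly(A)-binding protein genes 2 of 9 had promoter peaks (22.2%, 2.81 to 60.0), an interval that also holds the share of all genes. Pabpc1, the main form of the protein that coats poly(A) tails and binds eIF4G, had 36.9 in the widest member peak, 1900 bp at chromosome 15, 36607901 to 36609800 (the authors' p = 3.11e-28). Pabpc4l had 11.9, and Pabpc1l, Pabpc1l2a, Pabpc1l2b, Pabpc2, Pabpc4, Pabpc5 and Pabpc6 had none. Of the 4 LARP peaks 3 were wider than 1300 bp, as were 4 of the 43 member peaks (9.30%) and 4.61% of the whole list. Without such peaks Larp6 alone was left among the LARP genes, at 18.7.

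Most member peaks lay over the start site. Within 1 kb of a TSS were 36 of 43 peaks, 83.7% (69.3 to 93.2), beside 79.9% of the list, and 33 (76.7%) overlapped a TSS, beside 62.9%. Relative to the TSS, the centres of the 36 promoter peaks had a median position of 167.5 bp downstream (quartiles 25.25 and 238). They lay downstream in 27 of 36 (75%), as in 73.9% of all promoter peaks, whose median was 117.5 bp. All 5 eIF3 peaks were centred between 170.5 and 242.5 bp downstream. Larp1b, Eif5a and Eif1a were centred farthest upstream, at -580.5, -370.5 and -253.5 bp, and Eif4g2 and Eif4e farthest downstream, at 529.5 and 432.5 bp. Wider peaks had higher folds, with a Spearman correlation of 0.659 across the 36 member promoter peaks and 0.664 across all 7599, which share the same libraries and peak caller. Another gene's RefSeq start on the opposite strand lay within 1 kb of 6 member promoter peaks (16.7%), beside 15.9% of all. Those were the peaks of Eif2a, Eif1b, Eif5b, Eif5a2, Eef2kmt and Eif4enif1, so they cannot be ascribed to the member gene alone.

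**Figure D2:**
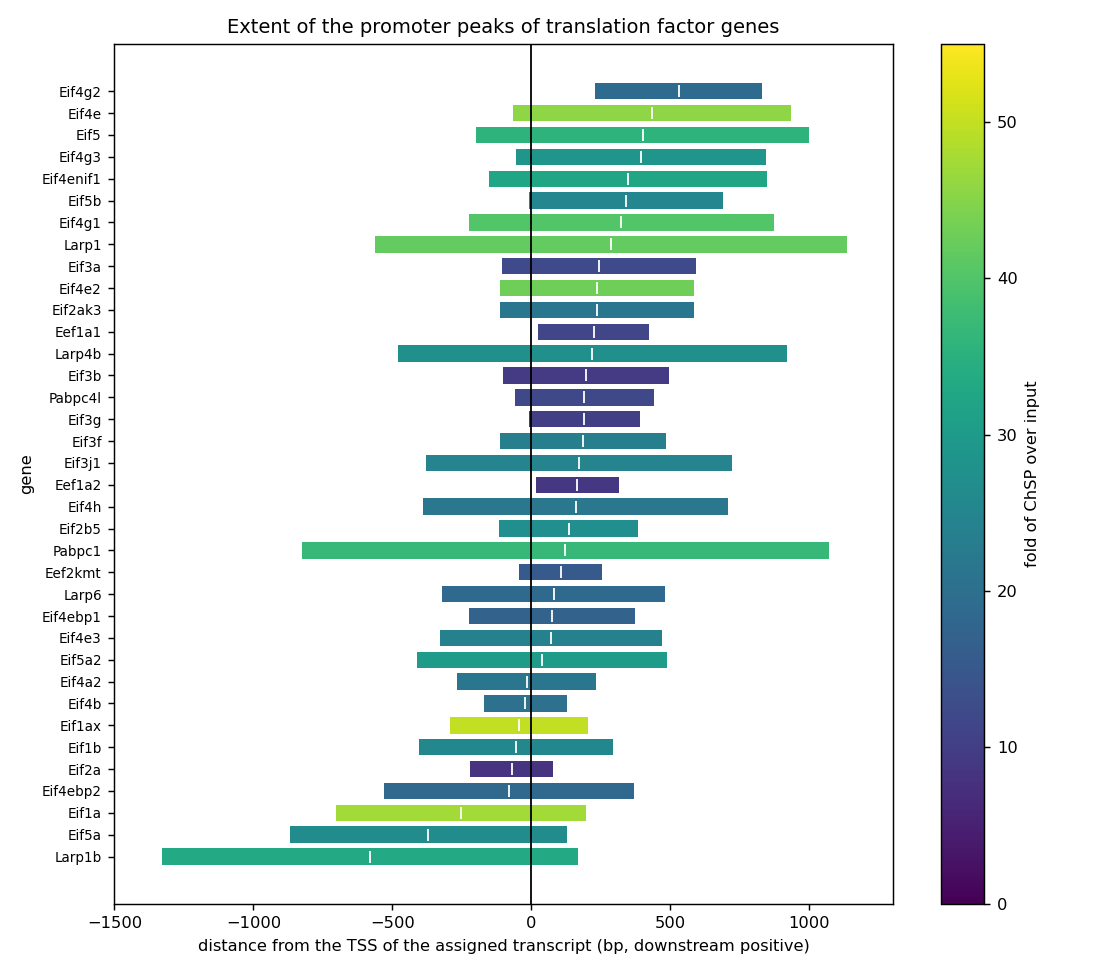
Extent of each of the 36 promoter peaks in bp from the TSS of its assigned transcript (horizontal axis, downstream positive), 1 bar per gene, coloured by fold of ChSP over input, with a white tick at the centre. Peak edges are resolved to 100 bp; 27 of 36 centres lie to the right of the TSS, and Pabpc1 and Larp1 have the widest bars.

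Peaks assigned to a neighbour added few members. Of the 50 member genes without an assigned promoter peak, 35 have a start in the RefSeq promoter table, and Eif1ad and Larp4 were the 2 with a peak of another gene within 1 kb of it. Counting any peak within 1 kb of a RefSeq start, whichever gene it is assigned to, 33 of 66 member genes had one (50.0%), beside 32.9% of 17492 protein-coding genes in that table. With either end of the gene allowed, 37 of 86 had one (43.0%), beside 31.8% of all protein-coding genes. That count takes in Eef1d, Eif1ad, Eif4e1b and Eef1akmt4 through peaks assigned to a neighbour. It leaves out Eif4e, Eif4g3 and Larp1, whose promoter peaks lie farther than 1 kb from either listed gene end. The count by RefSeq start was chosen after the values were seen.

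Member promoters were richer in CpG than promoters at large. In the window from 250 bases before to 50 after the first listed RefSeq start, 66 members had a median observed over expected CpG of 0.857, against 0.576 over all 17492 genes, and a median G+C content of 62.2% against 56.3%. A ratio above 0.6 was found in 58 of the 66 member windows (87.9%) and in 48.3% of all windows. Among windows above that ratio a peak lay over 28 of 58 member windows (48.3%) and over 50.8% of windows of all genes. Over all windows the shares were 47.0% for members and 27.0% for all genes. Within the members, windows under a peak had a median G+C content of 65.7% and those without had 58.7%. Eif4e and Eif5a count among those without, although each has a promoter peak, since the peak does not cover their first listed start. The part of CpG content in the members' share of peaks was not tested.

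**Figure D3:**
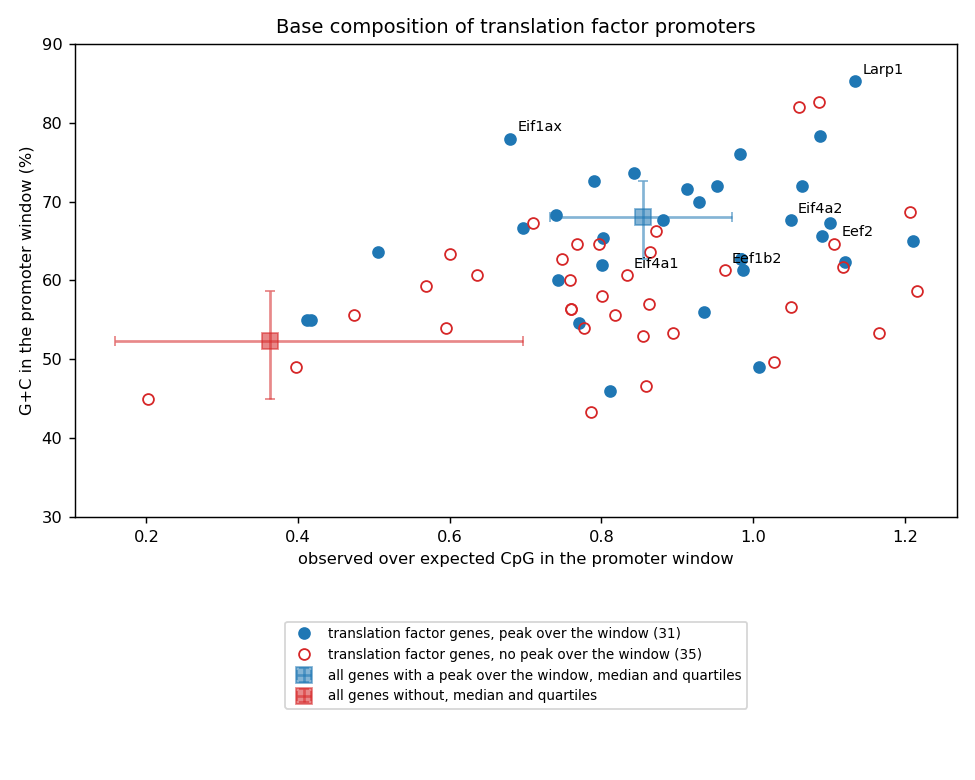
G+C content (%, vertical axis) against observed over expected CpG (horizontal axis) in the 300-base promoter window of 66 translation factor genes, filled where a peak lies over the window (31) and open where none does (35). Squares give the median and quartiles of all genes with and without a peak over the window; open and filled points overlap widely, and most open points have a higher CpG ratio than the median of all genes without a peak, 0.363.

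Motifs that KLF and Sp factors bind were searched on both strands in the same windows. GGGCGG was present in 24 of 31 member windows under a peak (77.4%) and in 24 of 35 without (68.6%). Over all genes the shares were 82.8% under a peak and 32.8% without. The longer GGGGCGGGG, which holds GGGCGG, was in 7 of 31 member windows under a peak (22.6%) and in 1 of 35 without (2.86%), that of Eif3d, beside 34.4% and 8.45% over all genes. CCACCC was in 13 of 31 (41.9%) and 7 of 35 (20.0%), beside 40.7% and 29.9%. CCNCNCCC, which also matches within GGGGCGGGG, was in 74.2% and 57.1%, beside 84.3% and 45.3%. A GGGCGG was thus present in most member windows, with or without a peak. The member windows under a peak that held no GGGCGG numbered 7, those of Eif3f, Eif3g, Eif2b5, Eif2ak3, Eif4g3, Eif5b and Larp1b. Larp1 had 7 copies at a G+C content of 85.3%, and Eif1ax had 12 in the full window. Absence of a match says only that these letters are not in this window.

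Other genes of the translation pathway were set beside these factors as 7 lists. For each list are named the genes with the highest folds and, of those without a promoter peak, only the first in alphabetical order. Partners of the poly(A) tail had promoter peaks at 12 of 18 genes (66.7%, 41.0 to 86.7) with a median fold of 33.6. The highest were at Paip1, whose product bridges the poly(A)-binding protein and eIF4A, with 53.7, Atxn2 with 41.9 and the deadenylase gene Cnot6l with 39.1, and Cnot1 and Cnot8 had none. Cap signalling genes of mTOR and MNK had them at 9 of 15 (60.0%, 32.3 to 83.7). There Pdcd4, an eIF4A inhibitor, had 41.3 and the ribosomal S6 kinase (RSK) genes Rps6ka3 and Rps6ka1 had 34.9 and 28.1, with none at Akt1s1 and Ddit4. Initiation accessory genes had them at 8 of 17 (47.1%, 23.0 to 72.2). Bzw1 led with 32.1, before Ddx3x with 28.9 and Gigyf2 with 28.9, and Bzw2 and Ctif had none. Integrated stress response genes had them at 6 of 13 (46.2%, 19.2 to 74.9). Gcn1, the activator of GCN2, led with 40.7, before Nck1 with 39.6 and Dnajc3 with 20.3, and Chac1 and Ddit3 had none. Of 6 termination and recycling genes 2 had them (33.3%, 4.33 to 77.7), Gspt1 (eRF3) with 21.3 and Etf1 (eRF1) with 10.5. Abce1 and Gspt2 had none. The intervals of the accessory, stress response and termination lists all hold the 30.9% of all genes. Those of the poly(A) tail and cap signalling lists lie above it, with no allowance for the number of lists.

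The tRNA synthetases and ribosomal proteins, the bulk machinery of translation, had assigned promoter peaks at shares below the 30.9% of all genes. Of 22 cytosolic tRNA synthetase and scaffold genes 2 had one (9.09%, 1.12 to 29.2), Gars with 18.9 and Eprs with 16.2, and Aars and Aimp1 had none. Counting any peak within 1 kb of a RefSeq start, 3 of 15 had one, Yars being added, beside 32.9% of all genes, so the low share of this list depends on how peaks are assigned and rests on few genes. Genes of cytosolic ribosomal proteins carried one at 15 of 78 (19.2%, 11.2 to 29.7), with 30.2 at Rpl14, 25.01 at Rpl17 and 23.3 at Rpl32, and none at Rpl10 and Rpl11. By RefSeq start 13 of 59 had one, beside 32.9% of all genes, and no interval was computed for that count. Ribosomal windows had the same median CpG ratio as those of the factors, 0.857, but a lower median G+C content, 57.0% against 62.2%. Among ribosomal windows with a CpG ratio above 0.6 a peak lay over 9 of 49 (18.4%). No test was made of the difference between these lists and the factor genes, and their genes also differ in length, with medians of 3151.5 bp for ribosomal protein genes and 15976.5 bp for the factor genes.

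**Figure D4:**
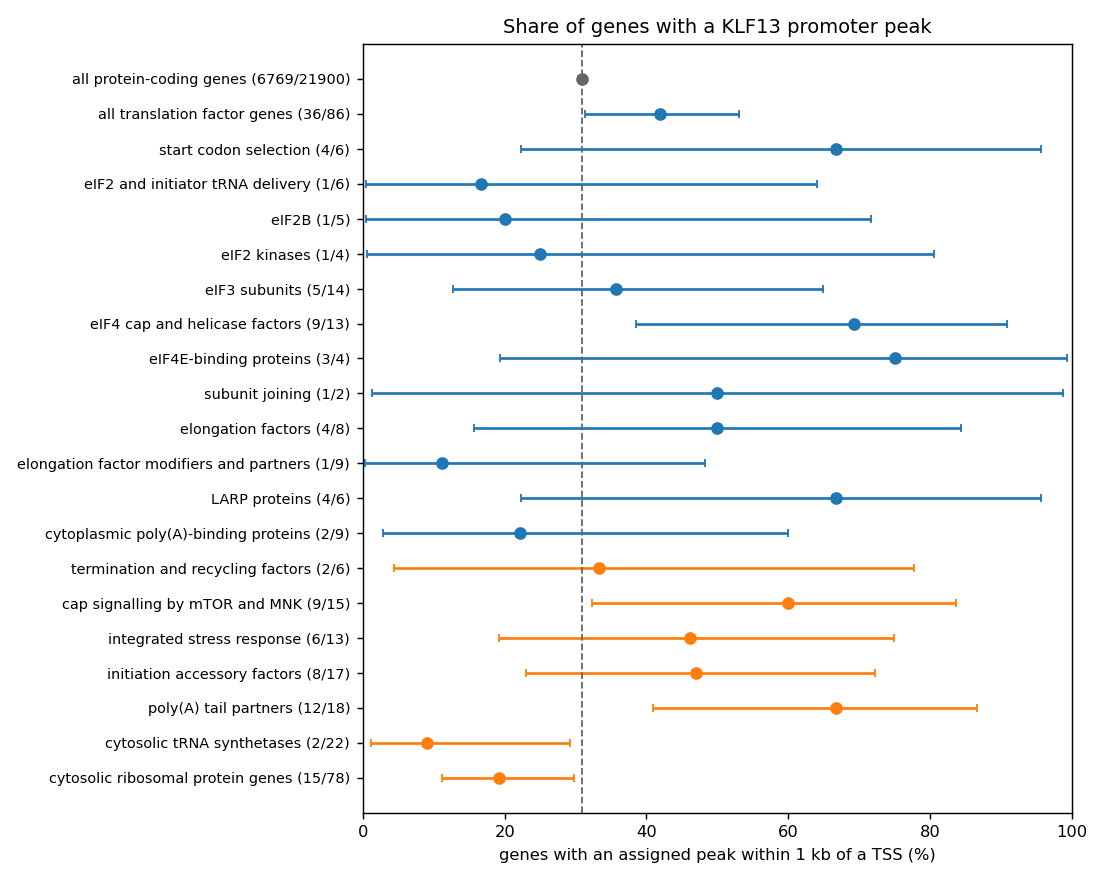
Percentage of genes with an assigned peak within 1 kb of a TSS (horizontal axis), with exact 95% binomial intervals, for all protein-coding genes (grey, dashed line at 30.9%), translation factor genes and their roles (blue) and other translation lists (orange). Numbers of genes stand in the labels. Among roles only the interval of the eIF4 factors lies wholly above the line. Those of all translation factor genes (from 31.3), the poly(A) tail partners and the cap signalling genes also lie above it. Those of the tRNA synthetases and ribosomal proteins lie below it. The intervals cover counting error only, with no allowance for the number of roles and lists, and are not a test.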

How the data were processed

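Each peak of the deposited list covers all 8 libraries together. The value columns deposited by the authors have no names in the header and were read, from their values and PePr's column order, as a linear fold (ChSP divided by input), its p-value, an adjusted p-value and a score. No scaling between libraries is stated. The score, proportional to the fold, and the adjusted p-value were left aside. The submitters' processing notes name the build GRCm38 and, without roles, HOMER 4.9.1, ChIPseeker 1.16.1, BWA 0.7.17-r1188 and FastQC 0.11.3; the list's name gives PePr as the caller. Gene, annotation class and distance to the TSS are the authors', per the file headers, with 1 gene per peak.

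Members and gene lists were chosen with earlier results of these data known. Genes were counted in a RefSeq table (GRCm38.p6), in which all 39 member genes of the peak list and every gene of the other lists matched. Promoter sequences are RefSeq's; 66 members had one. Named in full were the 6 highest and 3 lowest folds, genes with several peaks, peaks beyond 3 kb, the widest peak and the smallest p. Eif4a1, Eif4a2 and genes named for motif content were chosen after their values were seen. Motif and distance functions were tested on simulated data. A peak list cannot check the cell type against expressed markers. Tables were handled with pandas 2.3.3 and numpy 2.4.6, intervals came from scipy 1.17.1, and plots from matplotlib 3.10.9, under Python 3.11.15.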

Additional observations from a re-analysis of the deposited data

How the results depend on the processing

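No paired analysis was possible because ChSP and input libraries enter each deposited value jointly. For the same reason no library could be left out. Keeping only the 4753 peaks with the smallest p left 24 member peaks, 100% of them within 1 kb of a TSS. Of all 4753 peaks, 4318 lay within 1 kb of a TSS, so the whole list's share was also higher in this setting. There 24 of 86 member genes (27.9%) had a promoter peak beside 18.6% of all genes. The members' median fold minus that of all promoter peaks turned from 2.09 to -1.33 (26.9 against 28.2), so the members' median was not above that of all promoter peaks in every setting. Leaving out regulators and partners raised the share of member peaks within 1 kb to 93.9%, beside 79.9% of the list. Other settings were 3 kb, peaks over a TSS, any assigned peak, merged peaks and either gene end. Genes were also counted without the 5% widest peaks and without the 3 peaks upstream of Eif4enif1. Across these settings, from 32 to 39 of 86 genes were counted. The 32 (37.2%) came without the widest peaks, beside 29.3% of all genes. The 39 (45.3%) had any assigned peak, at any distance from a TSS, beside 33.6% of all genes. Peaks over a TSS gave 33 (38.4%), beside 25.8%. Initiation factor symbols alone gave 27 of 56 (48.2%), beside 30.9% of all genes. The median fold in these settings, not computed for either gene end, ran from 21.6 to 25.3. Settings without those 3 peaks, at RefSeq starts and for folds by role were chosen after seeing the data. By role, with the 4753 peaks alone the eIF3 median was 23.6 (3 peaks) and the elongation factor median 28.3 (2 peaks), and peaks over a TSS gave 28.3 for elongation factors too. In both settings the elongation factor promoter peaks left were those of Eif5a and Eif5a2, without those of Eef1a1 and Eef1a2. Why the folds of these genes differ was not tested. Read depth is unknown, so a gene without a listed peak may lie under the threshold of detection.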

Other observations

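Other elements were also counted in the 300-base promoter windows. The E-box CACGTG was in 13 of 66 member windows (19.7%) and in 7.90% of all 17492 windows. It was in 6 of 31 member windows under a peak (19.4%) and in 7 of 35 without (20.0%), shares that lay close together. Eef1akmt4 and its readthrough form Eef1akmt4-ece2 share a start. Their windows, with 1 E-box and no peak, are the same sequence counted for both genes, here and in the other window counts. Windows are taken at the first listed start, so the pair of E-boxes of Eif4e, which lie before the later start where its peak is, are not in this count, and Eif4e and Eif5a are among the windows without a peak. The windows of Eif4g1 and Eif5a2 held 2 copies each, and those of Eif4h, Eif1b, Eif3a and Eif3f held 1. The ETS core CCGGAAG was in 17 of 66 member windows (25.8%), in 11.9% of all windows and in 35.6% of those of ribosomal protein genes. The cAMP response element TGACGTCA was in 2 of 66, those of Eef2 and Larp7, beside 2.34% of all. Neither of these 2 windows had a peak.

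Many mRNAs of the translation machinery start with a C followed by a run of pyrimidines, the element through which mTOR and LARP1 control them. A C followed by 4 pyrimidines, beginning within 5 bases of the RefSeq start, was found at 17 of 66 member starts (25.8%), at 28 of 59 starts of ribosomal protein genes (47.5%) and at 18.7% of all starts. Among members it was at 9 of 31 with a peak over the window (29.0%), including Eef1a1, Eif3b, Eif3f, Eif4g1 and Larp1, and at 8 of 35 without (22.9%). RefSeq starts can lie some bases from the start used in HT22, and this search was added after the data were seen.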
